A study of Mus musculus with 816 samples.

Results

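Interferon beta (IFNb) was added to primary mouse microglia that also received TNFa, P3C and PGE2, and its effect on each gene was read after 72 h. The comparison takes all 7 cultures labelled TNFa + P3C + PGE2 + IFNb and all 7 labelled TNFa + P3C + PGE2 at that time, 14 of the 816 samples of the series, which holds 784 cultures and 32 mice. The study exposed microglia to many stimuli and combinations, sequenced the 3′ ends of their RNA and sorted genes into modules. The cells were bought as primary microglia from newborn mouse brain, plated in multi-well plates and given their stimuli in fresh medium some days later. P3C is a synthetic lipopeptide that TLR2 binds, and PGE2 is a prostaglandin. TNFa, P3C and PGE2, called the mix from here on, are in both groups, so the groups differ in IFNb. The labels of both groups state 1 dose, 0.000004 µg/µl, and give none for P3C, PGE2 or IFNb within the combination. For reference, 4 cultures with IFNb alone (0.0001 µg/µl) and 25 untreated cultures, also at 72 h, complete a layout of mix and IFNb, and since the dose of IFNb inside the mix is not stated it may differ from that of IFNb alone. All 43 cultures share 1 source ID, and whether they come from a single preparation of cells is not stated. The replicates are wells, so every p here measures the spread between wells and the plates they lie on, not between animals. These are isolated cells of neonatal origin with no neurons or astrocytes around them by design. The wells lie on 2 culture plates: plate 1 holds 4 cultures of the mix and 3 with IFNb, all in edge wells, and plate 2 holds 3 and 4, all in middle wells but 1 with IFNb. IFNb alone was grown on plate 1 only, while the untreated cultures are spread over 4 plates.

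Type I interferons such as IFNb bind a receptor made of Ifnar1 and Ifnar2, whose kinases Jak1 and Tyk2 activate transcription factors of the STAT family. With IRF9 these form a complex that binds interferon-stimulated response elements in the promoters of antiviral genes. TNFa and TLR2 ligands act through NF-kB, PGE2 raises cAMP, and in macrophages type I interferons are known both to add antiviral genes to such programs and to hold back some inflammatory ones.

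Of 9399 genes tested, IFNb raised 123 (1.31%) and suppressed 36 (0.383%) in microglia that already received the mix. The raised genes include antiviral effectors (Ifit1, Ifit3, Oasl1, Rsad2), the transcription factor Irf7, and the chemokine Ccl5, which reached 8975 CPM. The suppressed genes include the gelatinase Mmp9, whose transcript was near 0 in every culture with IFNb, the scavenger receptor Marco, and the chemokines Pf4 and Ccl6. Mmp9 and Marco stood far higher in the mix than in untreated cultures. The mix's own mediators Tnf, Il1b and the NF-kB subunits did not pass the test in either direction.

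A gene was tested with more than 5 CPM (reads of a gene per 1e6 mapped reads) in at least 4 of the 14 cultures, and called raised or suppressed at an adjusted p under 0.05 over all genes tested and a log2 fold change of at least 1 in size. Values in CPM are given as the lowest, the median and the highest culture of a group. Fold changes are differences of mean log2(CPM + 1), and the pair of numbers in parentheses behind one is the log2 fold change within plate 1 and within plate 2. Each culture was also left out in turn, and where a gene whose change is printed lost its call in some of these fits, their number is given.

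The promoters of the raised genes carry a sequence feature that the choice of genes did not use. The core of the interferon-stimulated response element, GAAANNGAA on either strand, was searched in the 250 bases before the start of transcription in the RefSeq promoters of GRCm38.p6. Of the 123 raised genes 98 matched an entry, with 122 promoters, and 34.43% of these promoters hold the core, in 40 genes. The share is 5.714% of the 35 promoters of suppressed genes (30 of the 36 genes matched), 6.089% of the 9181 promoters of all genes tested and 7.129% of all 32851 promoters. For the STAT element, TTCNNNGAA, the shares are 8.197% of raised, 5.714% of suppressed and 5.544% of tested promoters, and 7.02% of all. Part of the NF-kB site, GGGANTTTC, is in 1.639%, 0%, 0.7624% and 0.9406% in that order, and the cAMP response element, TGACGTCA, in 0%, 0%, 2.821% and 1.546%. The first 2 motifs can overlap each other, as they share the letters GAA.

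The stretches below, 5′ to 3′ on the strand of the gene and ending at the base before the start, show the core of the response element in capitals, on whichever strand it was found. They were taken for 8 raised genes described further down, chosen with the matches known, and for Cybb, 1 of 2 suppressed genes with a match (Clybl is the other). They are Ifit1 (chr19:34640739-34640888, plus strand), Ifit3 (chr19:34583349-34583528, plus strand), Isg15 (chr4:156200819-156200948, minus strand), Oas3 (chr5:120777660-120777779, minus strand), Rsad2 (chr12:26456453-26456592, minus strand), Bst2 (chr8:71537473-71537632, minus strand), Irgm1 (chr11:48871421-48871520, minus strand), Gbp2 (chr3:142620563-142620662, plus strand) and Cybb (chrX:9469325-9469444, minus strand). Ifit1, Ifit3 and Isg15 hold 3 matches each, nearest to the start at 84, 102 and 66 bases before it. Where matches overlap, the capitals run on. A match describes these letters and is no evidence that a factor binds.
Ifit1: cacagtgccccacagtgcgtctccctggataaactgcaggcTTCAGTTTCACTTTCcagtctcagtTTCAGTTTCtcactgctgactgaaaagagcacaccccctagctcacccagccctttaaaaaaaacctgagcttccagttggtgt
Ifit3: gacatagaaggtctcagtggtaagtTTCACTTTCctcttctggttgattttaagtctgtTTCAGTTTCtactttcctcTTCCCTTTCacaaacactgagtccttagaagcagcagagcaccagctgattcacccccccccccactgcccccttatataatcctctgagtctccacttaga
Isg15: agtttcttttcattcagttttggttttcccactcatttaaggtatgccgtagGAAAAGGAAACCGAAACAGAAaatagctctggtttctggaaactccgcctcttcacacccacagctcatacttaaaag
Oas3: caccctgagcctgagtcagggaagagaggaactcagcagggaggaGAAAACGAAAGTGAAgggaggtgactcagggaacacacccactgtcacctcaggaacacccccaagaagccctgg
Rsad2: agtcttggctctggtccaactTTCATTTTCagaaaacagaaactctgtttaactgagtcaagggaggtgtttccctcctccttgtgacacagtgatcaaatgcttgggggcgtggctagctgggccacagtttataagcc
Bst2: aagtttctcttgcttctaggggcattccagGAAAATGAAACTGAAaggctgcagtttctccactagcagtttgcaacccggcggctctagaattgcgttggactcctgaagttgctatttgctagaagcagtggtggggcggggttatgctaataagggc
Irgm1: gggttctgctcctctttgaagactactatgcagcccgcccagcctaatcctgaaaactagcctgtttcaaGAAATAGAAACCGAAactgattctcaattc
Gbp2: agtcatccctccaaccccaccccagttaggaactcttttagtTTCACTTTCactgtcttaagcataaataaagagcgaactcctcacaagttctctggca
Cybb: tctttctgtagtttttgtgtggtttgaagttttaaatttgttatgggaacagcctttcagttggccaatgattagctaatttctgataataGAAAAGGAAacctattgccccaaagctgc

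The cultures were checked against markers before the genes were read. Of 15 microglia markers, 7 were above 5 CPM in all 14 cultures (among them Fcrls, Csf1r, Aif1, Itgam, Selplg and Trem2), and Csf1r, the receptor for the growth factors that keep microglia alive, was at 1268, 2043 and 2797 CPM in the mix and 759, 1230.4 and 2810.2 CPM with IFNb. P2ry12, P2ry13, Sall1 and Gpr34, which mark microglia in the healthy brain, stayed under 5 CPM in all 14 cultures. The summed CPM of the 15 markers was 2324, 3853 and 5161 in the mix and 1087, 2585 and 5418 with IFNb, and the groups overlap (exact permutation test, p = 0.1428, adjusted p = 0.5712 over 12 such tests, difference of means -1072). Of 9 lists for other cells, 8 had an adjusted p above 0.05: the medians in the mix and with IFNb were 6.27 and 5.72 CPM for astrocytes, 53.1 and 20.1 for the oligodendrocyte lineage, 3.84 and 5.42 for neurons, 49.6 and 60.2 for endothelial cells, 10.4 and 4.93 for fibroblasts, 2.31 and 1.10 for neutrophils, 0.936 and 1.14 for T cells, and 0.776 and 0.979 for B cells. Some single cultures stood far higher. In the mix and with IFNb, the highest culture had 10.7 and 63.2 CPM for neurons, 275 and 138 for endothelial cells, and 43.2 and 118 for fibroblasts. Perivascular macrophage markers summed to 3.58, 31.4 and 48.3 CPM in the mix and 35.9, 65.8 and 115 CPM with IFNb (exact permutation test, adjusted p = 0.02098, 7 of 7 cultures above the median of the mix). Most of that sum is Siglec1, 0, 19.8 and 36.9 CPM in the mix and 32.9, 62.6 and 114 CPM with IFNb, a lectin that type I interferons also induce and that was not called in limma. The other 4 markers do not follow it: Cd163 and Lyve1 were at or near 0 in every culture, Mrc1 was at 0, 4.08 and 11.8 CPM in the mix and 0, 1.41 and 3.39 CPM with IFNb, and Cbr2 at 0, 3.35 and 10.3 and 0, 0.190 and 1.61 CPM. Values are relative to all RNA of a well, and fewer cells of a type and less RNA per cell cannot be told apart. The depth was 3.22, 5.34 and 10.3 M mapped reads in the mix and 3.37, 6.20 and 13.5 M with IFNb (M for 1e6; exact permutation test, p = 0.3071), so 1 read is at most 0.310 CPM. More genes were above 5 CPM on plate 1 (8452 to 8556 a culture) than on plate 2 (7080 to 7709).

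The 7 values with IFNb lay wholly above the 7 of the mix for 103 raised genes and wholly below for 17 suppressed genes, where 120 (1.28%) and 40 (0.426%) of all tested genes do so in these directions. The median log2 fold change was 3.34 in the raised and -2.84 in the suppressed genes, against 0.01 over all tested genes. At least 4-fold changes were seen in 104 raised and 26 suppressed genes, and at least 16-fold changes in 28 and 2. With plate in the model the counts were 170 and 59, which include 122 of the 123 and all 36, and with library pool 154 and 43, which include 120 of the 123 but 24 of the 36. Pool and treatment are partly mixed: a pool of plate 1 holds 2 cultures of the mix and 0 with IFNb, and a pool of plate 2 holds 0 and 1. Fitted with 4 groups the counts were 187 and 89, which include 117 of the 123 but 26 of the 36. On plate 1 alone they were 239 and 245, so the raised side is the longer one over both plates but not on plate 1 by itself. When each culture was left out in turn, 106 of the 123 and 15 of the 36 were called every time. The suppressed list thus kept a smaller share of its calls, and why was not tested.

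**Figure D1:**
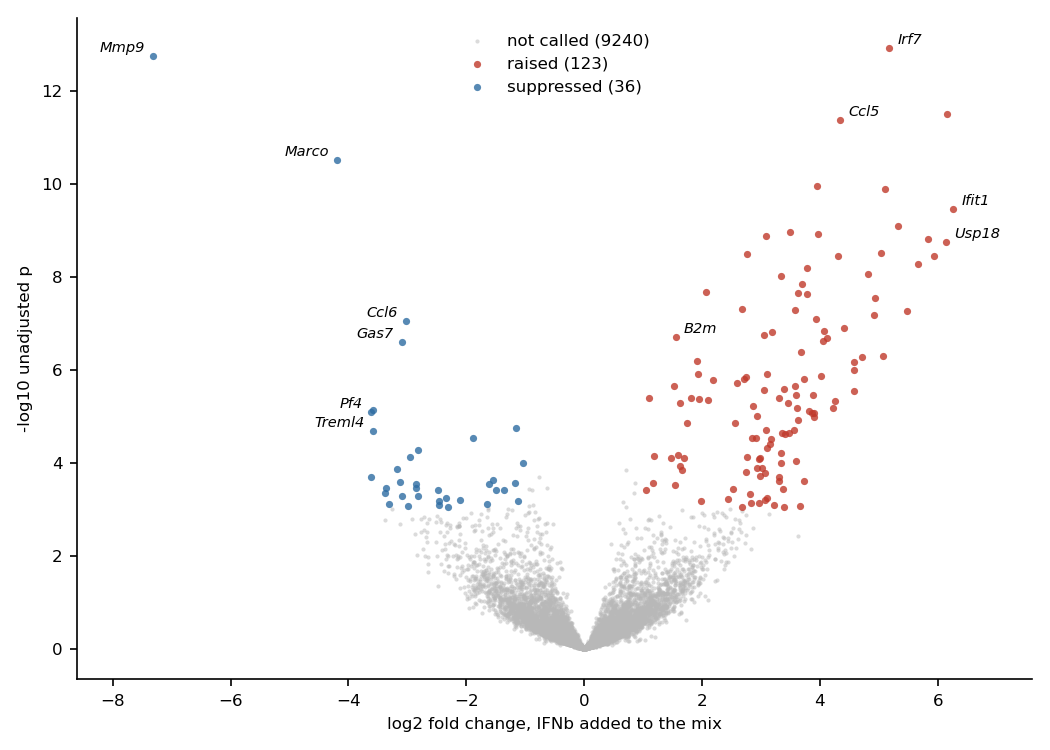
Each point is 1 of the 9399 tested genes, with the log2 fold change of IFNb added to the mix against the unadjusted p of limma on a log scale. Red points are the 123 raised genes, blue points the 36 suppressed ones, and names mark a selection of them.

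The receptor and its kinases were not called, while the factors downstream of them rose. Ifnar2, which carries the signal into the cell, was at 132, 159 and 209 CPM in the mix and 163, 240.0 and 350.3 CPM with IFNb, Jak1 at 276, 453 and 963 and 248, 377 and 1048 CPM. Stat2, a factor of the complex, read 7.16, 20.9 and 31.5 CPM in the mix and 172, 299 and 670.1 CPM with IFNb. Its lowest culture with IFNb was several-fold above the highest of the mix, with a log2 fold change of 4.31 (3.15, 5.51; adjusted p = 1.87e-06). Irf9, the DNA-binding part of the complex, was at 10.95, 33.8 and 76.7 CPM without and 287, 413 and 758 CPM with IFNb, again with no overlap, a log2 fold change of 3.78 (2.74, 4.88).

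Of the 6 tested genes of a list of further interferon regulatory factors, which leaves out Irf9, 1 was called: Irf7, which amplifies the interferon response by inducing further interferon genes. It stood at 19.1, 25.4 and 39.8 CPM in the mix and 718, 879 and 1698 CPM with IFNb. Every culture with IFNb was at least 18-fold above every culture without, a log2 fold change of 5.17 (5.33, 5.05; adjusted p = 8.35e-10). Irf1, a factor shared by interferon and NF-kB programs, was at 9.36, 18.9 and 38.2 CPM and 2.96, 46.6 and 88.9 CPM, with overlapping groups, and Irf8, which microglia need for their identity, at 56.6, 134 and 180.1 and 156, 191 and 247 CPM.

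Antiviral effectors form the largest group: 19 of 27 tested members rose and 0 fell in limma, with a median log2 fold change of 3.48. Ifit1, which binds viral RNA that lacks the host's cap methylation, was at 2.25, 17.3 and 30.4 CPM in the mix and at 642, 836 and 1139 CPM with IFNb. The values of Ifit3, its partner, were 3.73, 34.2 and 63.2 CPM and 749.7, 1559.8 and 2548 CPM. In both genes, whose promoters are printed above, no culture with IFNb came near the mix, and the log2 fold changes were 6.26 (5.11, 7.79; adjusted p = 4.06e-07) and 5.93 (5.26, 7.13). Ifit3b rose with them (6.15), but its 3′ end is nearly that of Ifit3, so reads may be shared between the copies. The same doubt holds for Oas1a and Oas1g, for H2-Q6 and H2-Q7, for Ccl2 and Ccl12, and within the Gbp, Slfn, Tgtp and Phf11 families.

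The oligoadenylate synthetases make a messenger that leads to the decay of RNA. Oas3 was at 0.224, 11.8 and 19.2 CPM in the mix and 143, 315 and 535 CPM with IFNb. Oasl1, a relative without the enzyme activity, was at 0.447, 5.71 and 10.8 CPM and 196, 252 and 430.1 CPM. Neither gene showed overlap, and they rose by 4.93 (5.01, 5.01) and 5.84 (4.97, 7.11) on the log2 scale. Oasl2 rose by 4.82 and Oas2 by 3.74.

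Rsad2 encodes viperin, which makes a nucleotide that ends viral RNA chains, and Cmpk2 supplies it with substrate. Rsad2 stood at 0.241, 18.9 and 26.2 CPM in the mix and 249, 300.2 and 792 CPM with IFNb, a log2 fold change of 5.07 (4.21, 6.38). The 2 genes are neighbours, and for Cmpk2 the values were 0, 4.94 and 27.9 CPM and 22.4, 83.7 and 192 CPM, where the highest culture of the mix lies within the range with IFNb (log2 fold change 4.22). Mx1, a GTPase that traps viral nucleocapsids, went from 0.310, 2.62 and 5.34 CPM to 6.24, 97.1 and 215 CPM, and the lowest culture with IFNb was just above the highest without (log2 fold change 4.57, adjusted p = 4.36e-04). Bst2 (tetherin), which holds budding virus at the membrane, was at 29.1, 115 and 147 CPM and 328, 418 and 1039 CPM, with no overlap and a log2 fold change of 2.74 (2.90, 2.97). Ifitm3, which blocks fusion of virus with endosomes, rose by 3.16, whereas the related Ifitm2 was at 184, 539 and 893 CPM in the mix and 13.96, 179.6 and 299 CPM with IFNb and was not called.

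Isg15, a ubiquitin-like modifier, read 2.17, 8.05 and 11.4 CPM in the mix and 27.3, 122 and 277 CPM with IFNb. Usp18, which removes ISG15 and also shuts the receptor down, read 0, 5.81 and 10.9 CPM and 199.7, 279.5 and 343 CPM. All cultures with IFNb were above all others in both genes, and Usp18 had one of the steepest changes of the comparison, 6.15 (5.16, 7.57; adjusted p = 1.17e-06), against 3.68 for Isg15. The enzymes that attach ISG15 rose as well: Uba7, which activates it, by 3.34, Ube2l6, which conjugates it, by 3.62, and the ligase Herc6 by 4.40. Of the 7 tested genes of conjugation and feedback these 4 rose (Usp18, Uba7, Ube2l6, Herc6), and the cytokine-signalling inhibitors Socs1 and Socs3 were not called, Socs3 standing at 12.1, 66.9 and 94.6 CPM in the mix and 56.5, 88.2 and 151 CPM with IFNb.

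**Figure D2:**
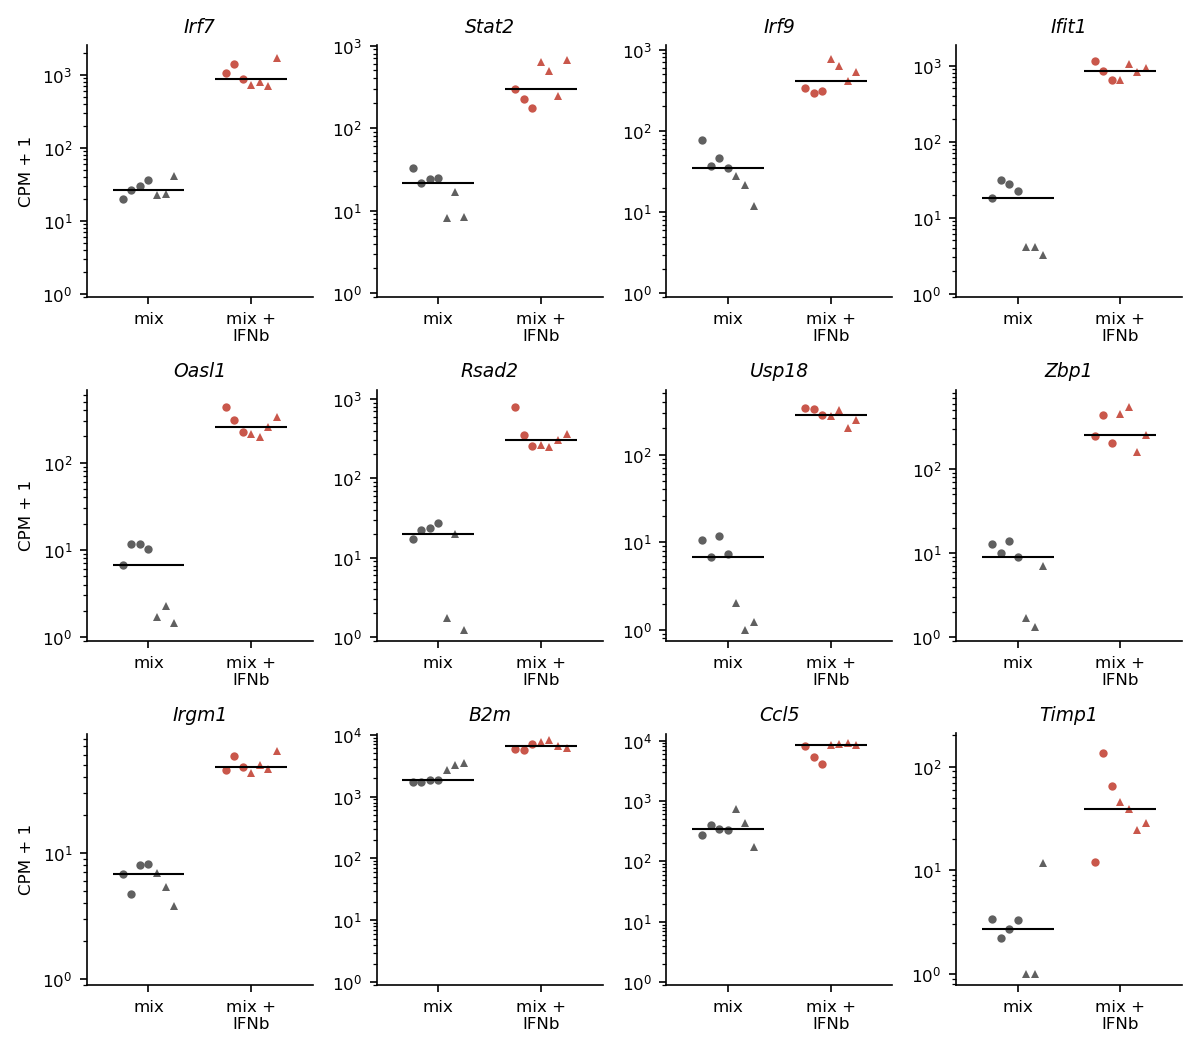
CPM of 12 raised genes in each of the 14 cultures, on a log scale of CPM + 1. Circles are cultures of plate 1 and triangles those of plate 2, with the median of each group as a bar.

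Sensors of foreign nucleic acid were raised in 5 of 10 tested members. Zbp1, which binds Z-form nucleic acid and can start necroptosis, was at 0.310, 7.88 and 12.9 CPM in the mix and 158, 253 and 544 CPM with IFNb. Ifih1 (MDA5), a sensor of long double-stranded RNA, was at 4.25, 8.05 and 18.01 CPM and 79.7, 102 and 259.9 CPM. Ddx58 (RIG-I), which detects RNA ends, was at 15.3, 55.02 and 157 CPM and 173, 519 and 719 CPM. None of the 3 overlapped between groups, and the log2 fold changes were 5.67 (4.65, 6.97), 3.59 (2.89, 4.18) and 3.11 (3.58, 2.79). Dhx58 (LGP2), a regulator of both helicases, rose by 3.60, and Ifi204, a DNA sensor of the cluster on chromosome 1, by 3.34. The cytosolic DNA sensor Mb21d1 (cGAS) and its adaptor Tmem173 (STING) were not called, and neither was Tlr7, an endosomal sensor of single-stranded RNA, at 12.5, 17.6 and 27.2 CPM and 18.6, 36.4 and 83.1 CPM. Xaf1, which promotes cell death by binding XIAP, was the 1 gene of 14 tested inflammasome and death genes that rose, from 1.90, 7.29 and 17.9 CPM to 157, 277 and 507 CPM, with no overlap and a log2 fold change of 5.11. Casp1, Casp8, Gsdmd and Nlrp3 were not called.

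The large GTPases attack the vacuoles of parasites and bacteria, and 6 of 11 tested members rose. Irgm1, a regulator of the family, was at 2.78, 5.86 and 7.17 CPM in the mix and 42.1, 47.3 and 62.8 CPM with IFNb. Its groups are tight and far apart, with a log2 fold change of 3.05 (2.90, 3.26). For Gbp7 the values were 0, 1.12 and 8.58 CPM and 20.8, 51.8 and 115 CPM, and for Gbp2 0.175, 38.6 and 90.8 CPM and 126, 274 and 544 CPM. Gbp2 rose by 3.66 with an adjusted p of 0.0482, close to the limit although its groups do not overlap. It changed by 1.63 on plate 1 and by 6.23 on plate 2, and the call was lost in 11 of 14 fits with 1 culture left out. Irgm2 (3.59), Igtp (3.10) and Ifi47 (2.99) rose too.

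Of 19 tested members of antigen presentation on MHC class I, 12 rose, and the median log2 fold change of all 19 was 1.63. H2-Q4, Tap2, Tapbpl, Psmb9, Psmb10, Psme2 and Erap1 were not called. B2m, the light chain of every class I molecule, was at 1700.0, 1862 and 3479.7 CPM in the mix and 5735, 6478 and 8082 CPM with IFNb. The classical heavy chain H2-K1 was at 601, 1712 and 1913 CPM and 3339, 3679.7 and 7925 CPM. Both were strongly expressed without IFNb, did not overlap between groups, and rose by 1.55 (1.81, 1.16) and 1.95 (2.10, 2.12). Tap1, a subunit of the peptide transporter, stood at 0.224, 20.8 and 27.2 CPM in the mix and 90.97, 150.5 and 203 CPM with IFNb (log2 fold change 3.18), and the non-classical H2-T22 at 0.411, 21.9 and 32.4 CPM and 110.2, 197 and 224 CPM (3.61). Psmb8, a subunit of the immunoproteasome, rose by 1.60, its activator Psme1 by 1.63, and Nlrc5, the transactivator of class I genes, by 2.75. Ctss, a lysosomal protease that trims the invariant chain for class II, rose by 1.53; it was named after its values were seen. MHC class II itself was low: of 10 listed genes 5 were tested, 0 were called in limma, and H2-Ab1, the 1 with the highest median, was at 0, 5.33 and 28.7 CPM in the mix and 0, 18.4 and 38.9 CPM with IFNb. Over all 9399 tested genes 1047 had an unadjusted p under 0.05, and none of these 5 did.

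Chemokines moved in both directions. Ccl5, which draws T cells and monocytes, was at 175, 341 and 733 CPM in the mix and at 4103, 8302 and 8975 CPM with IFNb. That puts the lowest culture with IFNb more than 5-fold above the highest without, a log2 fold change of 4.34 (4.08, 4.49; adjusted p = 9.80e-09). The monocyte attractants Ccl2 and Ccl7 also rose, but with wide spread: Ccl2 was at 0.175, 6.55 and 12.97 CPM and 8.09, 108 and 168 CPM, and its change was 1.23 on plate 1 and 6.32 on plate 2 (pooled 3.73, adjusted p = 0.0181), a call lost in 1 of 14 leave-one-out fits. For Ccl7 the pooled change was 3.39 (0.90, 5.69; adjusted p = 0.0494), a call lost in 11 of the 14. Cxcl10, a CXCR3 ligand that interferons induce in many cells, was low here, at 0, 2.03 and 5.81 CPM in the mix and 0.758, 15.7 and 55.1 CPM with IFNb, and did not pass (log2 fold change 2.45, adjusted p = 0.127), and neither did Cxcl9.

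Ccl6 and Ccl9, related CC chemokines that act through CCR1, fell. Ccl6 was at 191, 316 and 341 CPM in the mix and 16.3, 33.2 and 99.7 CPM with IFNb. Ccl9 was at 217, 545 and 659 CPM and 60.3, 100.2 and 259 CPM. The groups are apart for Ccl6, which fell by 3.02 on the log2 scale (-2.85, -3.06; adjusted p = 2.48e-05), and overlap in 1 direction for Ccl9, whose highest culture with IFNb lies above the lowest of the mix and which fell by 1.89 (-2.21, -1.34; adjusted p = 0.00290). Pf4 (CXCL4), a chemokine of platelets that macrophages also make, stood at 932, 1584 and 1827 CPM in the mix and 15.9, 89.9 and 638 CPM with IFNb. Its groups do not overlap, and it fell by 3.61 (-2.17, -4.80), with the larger fall on plate 2. The 4 tested chemokines that attract neutrophils were not called, with a median log2 fold change of -1.81; Cxcl2 had the lowest value of them, from 144, 179 and 501 CPM in the mix to 1.04, 55.01 and 249.5 CPM with IFNb (log2 fold change -3.37, adjusted p = 0.0723; -1.27 on plate 1 and -5.22 on plate 2).

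Inflammatory cytokines and the tested genes of the TLR2, NF-kB and TNF receptor lists were not called. This holds for 10 of 10 tested inflammatory cytokines and antagonists, 11 of 11 genes of the TLR2 pathway, 13 of 13 NF-kB subunits and feedback genes, and 10 of 10 TNF receptors and survival genes, whose median log2 fold changes were 1.44, -0.09, -0.21 and -0.07. Since 98.3% of all tested genes were not called, lists of this length without a call are not unusual. Tnf was at 327, 546 and 783 CPM in the mix and 315, 497 and 1226 CPM with IFNb. The NF-kB inhibitor Nfkbia was at 390.4, 507 and 578 CPM and 197, 402 and 567 CPM. For Sod2, a mitochondrial enzyme that TNF induces, the values were 802, 1246 and 1492 CPM and 699.8, 872 and 995 CPM. In all 3 the groups overlap, and every culture lies above the untreated median, which is 52.6, 106 and 98.1 CPM. Il1b, at 22.1, 74.5 and 114 CPM without and 6.57, 90.7 and 114 CPM with IFNb, overlaps in the same way, and Il1rn, the natural antagonist of IL-1, was at 0.302, 4.30 and 102 CPM and 12.4, 72.2 and 129 CPM and did not pass. A p that misses the threshold does not show that levels were equal.

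Of 13 tested genes of the prostaglandin and leukotriene pathway, 2 fell, and both make leukotrienes. Alox5, the 5-lipoxygenase, was at 1.24, 17.7 and 82.3 CPM in the mix and 0, 0.484 and 3.86 CPM with IFNb. Alox5ap, which hands it arachidonic acid, was at 293, 557 and 773 CPM and 152, 215 and 443 CPM. Both pairs of groups overlap at their edges, with log2 fold changes of -3.13 (-2.61, -3.42; adjusted p = 0.0189) and -1.11 (-0.90, -1.24; adjusted p = 0.0396). The call of Alox5ap was lost in 9 of 14 leave-one-out fits. On the prostaglandin side, the synthase Ptges read 71.8, 218 and 265 CPM and 60.8, 110.4 and 181 CPM and the PGE2 receptor Ptger2 0.447, 25.8 and 38.7 CPM and 0, 38.5 and 68.2 CPM, and neither was called. The same holds for all 10 tested genes of the cAMP response, among them Thbs1, with 466, 1042 and 1396 CPM in the mix and 104, 1133 and 2164 CPM with IFNb.

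Mmp9 shows the deepest fall of all genes. This gelatinase, which degrades basement membrane and loosens the blood-brain barrier, was at 260.2, 329 and 462 CPM in the mix and at 0, 1.31 and 2.42 CPM with IFNb. Each culture with IFNb was more than 100-fold below each culture of the mix, and the untreated median is 0.540 CPM. It fell by 7.31 on the log2 scale (-6.65, -7.86; adjusted p = 8.35e-10). Timp1, the inhibitor that binds MMP-9, moved the other way, from 0, 1.68 and 10.7 CPM in the mix to 10.97, 38.1 and 135 CPM with IFNb, without overlap and by 3.90 (4.04, 3.88; adjusted p = 0.00121). Mmp8, a collagenase, fell from 26.4, 54.99 and 149 CPM to 0, 7.88 and 29.8 CPM, with overlap and a log2 fold change of -3.09 (-1.01, -4.95), a call lost in 8 of 14 leave-one-out fits. Mmp14, which sits in the membrane, was at 40.4, 53.5 and 88.3 CPM and 13.8, 19.8 and 47.01 CPM and was not called. Of the 6 tested genes of this list 1 rose and 2 fell.

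Among scavenger receptors and C-type lectins 2 of 10 tested genes fell. Marco, which takes up bacteria and particles, stood at 1241, 2654 and 3193 CPM in the mix and 58.1, 119 and 183 CPM with IFNb. The highest culture with IFNb is more than 6-fold below the lowest of the mix, and Marco fell by 4.19 on the log2 scale (-4.49, -3.68; adjusted p = 5.66e-08). Clec4e (Mincle), a receptor for mycobacterial glycolipid, was at 37.9, 208 and 459 CPM and 42.6, 54.9 and 81.3 CPM, overlapping only at the lowest culture of the mix, and fell by 1.64 (-2.32, -0.84; adjusted p = 0.0450), a call that was lost in 13 of 14 fits with 1 culture left out. Msr1 and Cd36, further scavenger receptors, were not called, with 857, 954 and 1551 CPM in the mix and 489, 599 and 1423 CPM with IFNb for Cd36.

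**Figure D3:**
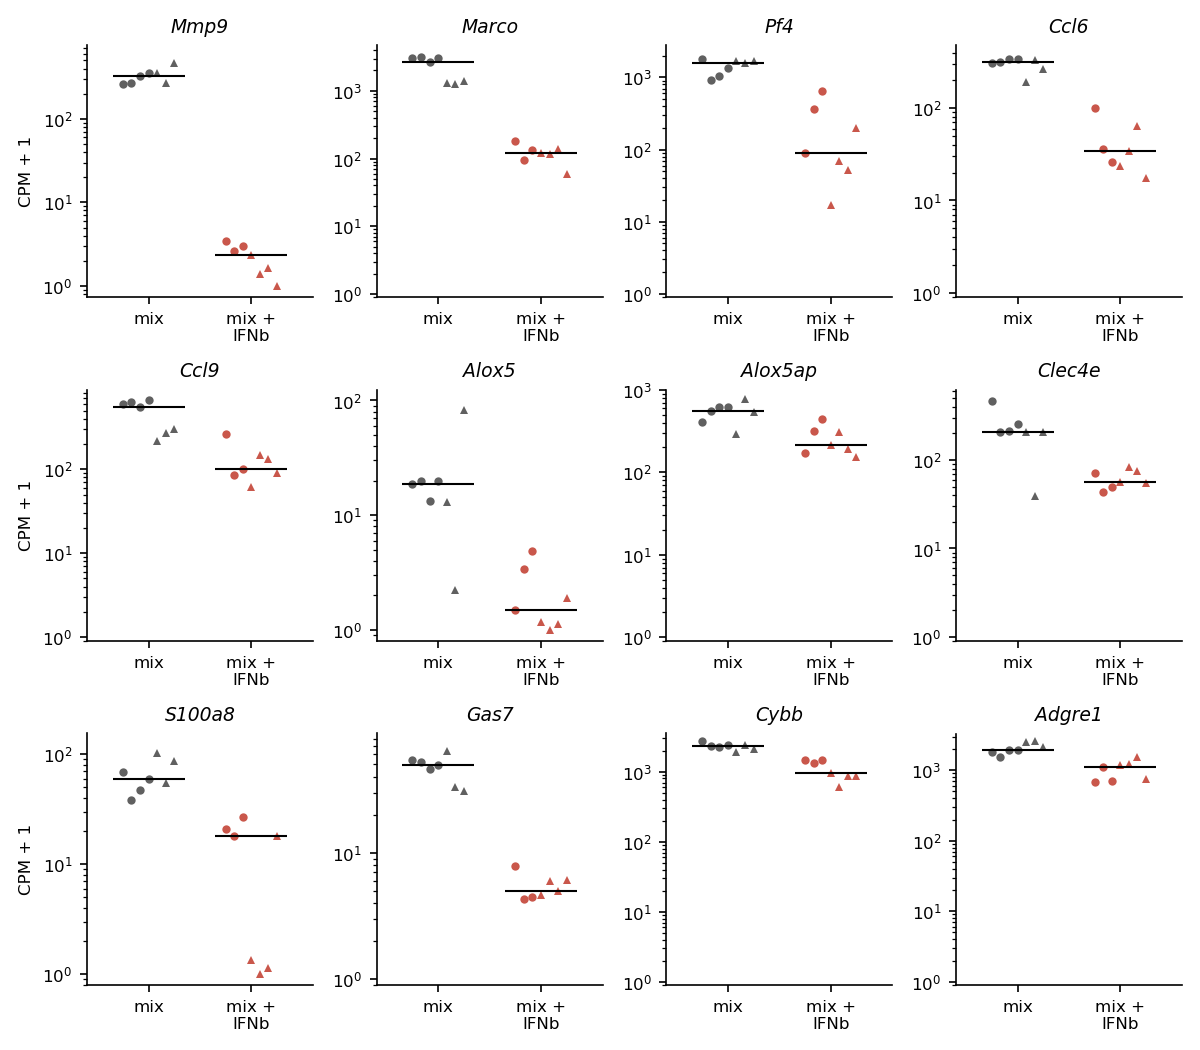
CPM of 12 suppressed genes in each of the 14 cultures, on a log scale of CPM + 1. Circles are cultures of plate 1 and triangles those of plate 2, with the median of each group as a bar.

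Further suppressed genes come from no list and have varied roles. S100a8, a subunit of calprotectin, was at 37.1, 57.99 and 101.2 CPM in the mix and 0, 16.9 and 25.7 CPM with IFNb. Treml4, a receptor of the TREM family, was at 13.97, 33.8 and 56.6 CPM and 0, 1.94 and 7.71 CPM. Neither overlaps between groups, and they had log2 fold changes of -3.38 (-1.26, -5.11) and -3.58 (-2.79, -4.13), but the call of S100a8 was lost in 9 of 14 fits with 1 culture left out. Gas7, a protein of the actin cortex, went from 29.9, 48.3 and 63.02 CPM to 3.31, 3.95 and 6.82 CPM, and Selenbp1, a selenium-binding protein, from 14.7, 31.3 and 69.5 CPM to 0, 6.42 and 11.9 CPM, both without overlap (-3.09 and -3.17). Edil3, which binds integrins, was at 19.1, 28.5 and 70.2 CPM and 0.167, 4.59 and 8.41 CPM and fell by 2.83; also without overlap fell Gsta3, a glutathione transferase (-2.95), Fxyd2, a regulator of the sodium pump (-3.58), St6gal1, a sialyltransferase (-2.46), Ncapd2, a condensin subunit (-2.82), and Tcp11l2 (-2.30). Of these, St6gal1 lost its call in 10, Ncapd2 in 8 and Tcp11l2 in 11 of the 14 fits. The subsequent genes were named after their values were seen. Cybb, the catalytic subunit of the phagocyte NADPH oxidase, read 1879.6, 2342 and 2714 CPM in the mix and 604, 961 and 1472 CPM with IFNb, with no overlap and a log2 fold change of -1.16 (-0.79, -1.40; adjusted p = 0.00200). Adgre1 (F4/80), a surface marker of macrophages, read 1523, 1959 and 2587 CPM and 690.0, 1114 and 1544 CPM, overlapping at 1 edge, with a log2 fold change of -1.03 (-1.14, -1.06), a call lost in 5 of the 14.

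In the lists for metabolism and growth 1 gene was called, which is near the background, as 98.3% of all tested genes were not called. Of 17 tested glycolysis and hypoxia genes 1 fell: Egln3, an oxygen sensor that marks HIF for decay, from 11.6, 17.5 and 28.2 CPM in the mix to 0, 0.653 and 9.35 CPM with IFNb (log2 fold change -2.86, adjusted p = 0.0207), a call lost in 3 of 14 leave-one-out fits. Aldoa, a glycolytic enzyme, was at 2748, 3307 and 3421 CPM and 1672, 2139 and 2413 CPM, with groups wholly apart and an adjusted p of 0.0243, but its log2 fold change of -0.63 is under the limit in size. The 16 tested genes of sterol synthesis and its control had a median log2 fold change of -1.21 and 0 calls in limma. The 12 tested proliferation genes and the 5 of nitric oxide, itaconate and tryptophan metabolism were not called either. Pcna, a clamp of DNA replication, was at 278, 379.6 and 477 CPM and 288, 442 and 704 CPM, and Irg1, which makes itaconate, at 45.6, 95.8 and 126 CPM and 35.8, 90.3 and 163 CPM.

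Single members rose in the lists of immune receptors and of disease-associated microglia. Fcgr1, the high-affinity receptor for IgG, was at 8.94, 35.4 and 60.1 CPM in the mix and 197, 378 and 658 CPM with IFNb, without overlap (log2 fold change 3.62; 2.67, 4.70), the 1 called of 5 tested Fc gamma receptor genes. C2, a complement protease, was at 1.86, 11.2 and 49.4 CPM and 51.1, 81.7 and 159 CPM and rose by 2.84, the 1 called of 11 tested complement genes. Lgals9, a ligand of the checkpoint receptor TIM-3, was at 192, 262 and 381 CPM and 645, 1129 and 1366 CPM and rose by 2.06 (2.29, 1.82), the 1 called of 6 tested checkpoint genes; Cd274 (PD-L1) was at 15.8, 25.9 and 99.7 CPM and 30.4, 74.3 and 161 CPM and was not called. Apoe, a lipid carrier of the disease-associated list, was at 2407, 2873 and 6738 CPM in the mix and 4266, 8588 and 10562 CPM with IFNb, overlapping, and rose by 1.17 (1.46, 0.67; adjusted p = 0.0200). This call was lost in 4 of 14 leave-one-out fits, and the untreated median was 36372 CPM. The remaining 12 tested genes of that list were not called. Among genes of the naming rule outside the lists, Slfn4 (5.48) and Slfn1 (4.92), schlafens of myeloid cells, Rtp4 (5.32), an RNA-binding antiviral protein, and Gm4955 (5.04) rose without overlap. Lcn2, an iron-scavenging acute-phase protein named after its values were seen, rose from 98.4, 162 and 275 CPM to 398, 541 and 1013 CPM (1.82; 1.94, 1.62), where untreated cultures had a median of 12.8 CPM.

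**Figure D4:**
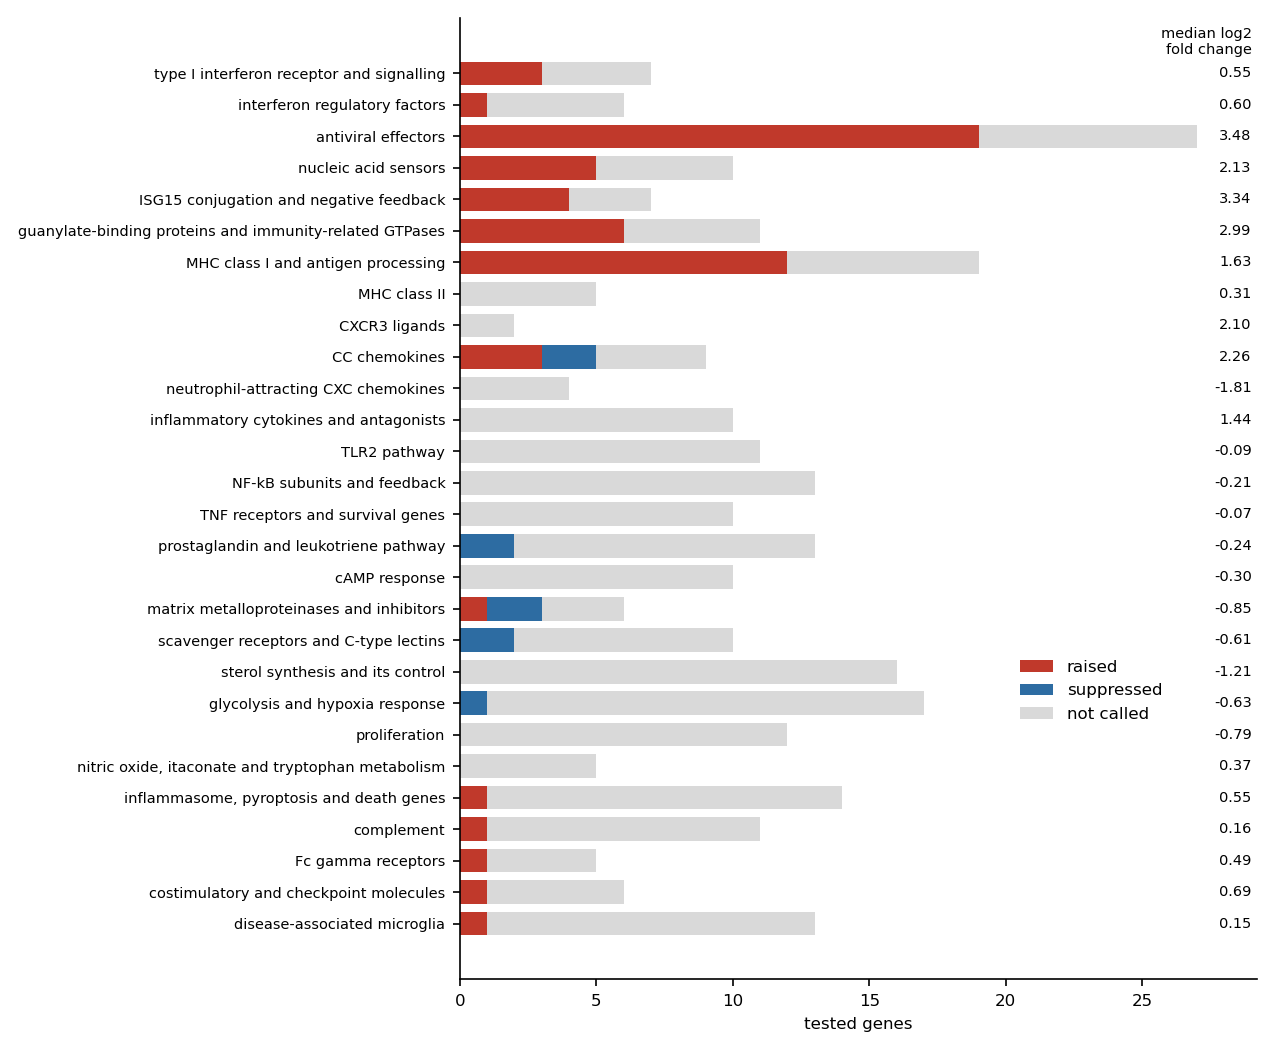
Tested genes of each list that were raised (red), suppressed (blue) or not called (grey) when IFNb was added to the mix, with the median log2 fold change of the list at the right.

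The 4 groups were also fitted together over 11417 genes, and the response to IFNb in the mix was compared with that to IFNb alone. IFNb alone, against untreated cultures, raised 402 genes (3.52%) and suppressed 122 (1.07%). Of the 123 genes raised in the mix, 107 were also raised by IFNb alone, which is 86.99% of the former and 26.62% of the latter. The fold changes compare different cultures, but the fit with 4 groups takes its genes and its spread from the mix cultures too. The median log2 fold change of the 123 genes was 3.34 in the mix and 3.39 with IFNb alone. With plate in the model the latter was 2.79, with 98 of the 123 raised, and on plate 1 alone 2.73, with 112 of 121 tested. The 36 suppressed genes had a median of -2.84 in the mix and -0.35 with IFNb alone, where 2 of them were suppressed and 1 was raised. With plate in the model that median was -0.55, with 6 suppressed and 0 raised in limma, and against the untreated cultures of plate 1 it was -0.61, with 12 suppressed and 1 raised. Over all genes, IFNb alone raised 289 and suppressed 266 of 11417 with plate in the model. On plate 1 alone it raised 532 and suppressed 851 of 10219. The sizes in the mix, 3.34 and -2.84, are fixed in part by the choice of genes there, so the contrast with IFNb alone does not show by itself that a change depends on the mix. Of the 36 genes, 10 had an untreated median under 5 CPM, where a fall can hardly be seen. Over the other 26 the medians were -2.40 in the mix and -0.45 with IFNb alone, -0.79 with plate in the model and -0.71 on plate 1 alone. On plate 1 Gas7 (-2.19) and Pf4 (-1.65) are among the genes that IFNb alone also suppressed. The response itself differed for 64 genes: the difference, mix minus alone, was positive for 18 (0.158%) and negative for 46 (0.403%). This is a sign and not a size. A gene that fell further in the mix counts as negative, and a gene that IFNb alone lowered more counts as positive. Plate and treatment are mixed in this test, because IFNb alone was grown on plate 1 and untreated cultures on 4 plates. Well position is mixed in too: on plate 1 the cultures with the mix are all in edge wells and the others all in middle wells, and the untreated cultures of the other plates are in edge or corner wells. On plate 1 alone a dependence on the mix and one on the edge therefore cannot be told apart. With plate in the model 14 of the 18 and 36 of the 46 were called again, and on plate 1 alone 12 and 37. The balance between the signs turns with these choices: 56 positive and 40 negative with plate, 103 and 45 with pool, and 365 and 200 on plate 1 alone.

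Of the suppressed genes 9 are among the 46. One is Mmp9, at 0, 0.540 and 13.7 CPM in untreated cultures and 0.554, 1.08 and 2.03 CPM with IFNb alone. With medians near 0 a fall could not be seen without the mix, so its difference of responses only restates the fall in the mix. Marco was at 4.45, 33.9 and 86.02 CPM untreated and 28.8, 36.3 and 48.1 CPM with IFNb alone, a difference of -4.49 (adjusted p = 3.17e-05; -3.89 on plate 1 alone). Ccl6, in contrast, was well above 0 in both, at 33.5, 134 and 279 CPM untreated and 162, 171 and 200.1 CPM with IFNb alone, and its responses differed by -3.66 (adjusted p = 3.17e-05; -3.18 on plate 1 alone). Ccl9 was at 8.17, 68.4 and 125 CPM untreated and 164, 167 and 178 CPM with IFNb alone, a log2 fold change of 1.52 that was called over all plates but is 1.05 with plate in the model and 0.85 on plate 1 alone, where it was not called, and lost in 4 of 43 leave-one-out fits. In the mix it fell, a difference of -3.40 (adjusted p = 0.00158; -3.06 on plate 1 alone). Edil3 (-4.51), Egln3 (-3.43), Fxyd2 (-3.37), Pf4 (-2.62) and Cybb (-1.82) are the others, of which Egln3 and Fxyd2 had untreated medians of 0.0941 and 0 CPM, with the same limit as Mmp9. On plate 1 alone Pf4 gave -0.52 and Egln3 -1.72, and both missed the threshold. Cybb was at 923 to 1200 CPM in the untreated cultures of plate 1 and 1227 to 1315 CPM with IFNb alone. On that plate it went from 2280 to 2714 CPM in the mix to 1323 to 1472 CPM with IFNb added. Its difference of responses is therefore smaller in size there than over all plates. With 1 of the 43 cultures left out, the difference was lost in 28 fits for Pf4 and in 1 for Egln3.

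Among raised genes, 4 had a higher log2 fold change in the mix than with IFNb alone by this test. Irf9 was at 39.1, 149.9 and 517 CPM untreated and 286, 357 and 418 CPM with IFNb alone, while the mix stood lower and the mix with IFNb at a similar level, and the responses differed by 2.57 (adjusted p = 0.00999; 1.46 on plate 1 alone). Timp1 was near 0 in both, at 0, 0.203 and 20.97 CPM and 0, 0.559 and 3.88 CPM, and responded in the mix only by these calls, a difference of 3.79 (adjusted p = 0.0207; with plate in the model 3.87), lost in 3 of 43 leave-one-out fits. AA467197, a small mitochondrial protein (3.77, lost in 10 of the 43), and Cd164, a sialomucin (3.56), are the others. Ccl5 had its highest values with the mix and IFNb together, against 12.7, 199.6 and 753 CPM untreated and 402, 459.7 and 530.1 CPM with IFNb alone. The difference of its responses, 2.48, did not pass over all plates (adjusted p = 0.305) but did with plate in the model (3.35) and on plate 1 alone (3.44). The remaining genes of the naming rule are Itgax (3.06), an integrin of activated microglia that IFNb alone lowered from 35.6 to 1.62 CPM at the median, and Ulk4 (6.19), at medians of 96.6 CPM untreated and 1.07 CPM with IFNb alone, the former not tested and the latter not called in the mix. The difference was lost in 11 of the 43 fits for Itgax and in 1 for Ulk4. Itgax had a median of 2.52 CPM in the mix, where a fall could hardly be seen.

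Some genes, interferon genes among them, responded less in the mix than to IFNb alone. By these calls 0 of the 123 genes raised in the mix are among them. Samhd1, which breaks down nucleotides that viruses need, was at 60.04, 167 and 320.5 CPM untreated and 949, 978 and 1043 CPM with IFNb alone, but at 141, 285 and 371 CPM in the mix and 208, 485 and 570.0 CPM with IFNb added. It was raised by IFNb alone (2.70) and not called in the mix, and the responses differed by -1.90 (adjusted p = 0.00518; -1.80 on plate 1 alone). Tgtp2, an immunity-related GTPase, had a median of 127 CPM with IFNb alone and 7.005 CPM with the mix and IFNb, a difference of -4.41 (adjusted p = 0.00915). Gm14446, a member of the Ifit family, stood at medians of 326 CPM and 12.9 CPM in these groups (-4.66), and Ifi44 at 29.6 CPM and 5.79 CPM (-2.84, lost in 6 of 43 leave-one-out fits). Vegfa, a growth factor for vessels, was raised by IFNb alone from a median of 1.17 CPM to 18.3 CPM, and was at 25.3 CPM in the mix and 11.9 CPM with IFNb added, a difference of -4.82 (adjusted p = 0.00229). Ldha, the enzyme that makes lactate, was raised by IFNb alone (1.03; 0.51 and not called on plate 1 alone, lost in 2 of 43 leave-one-out fits) and lay at -0.93 in the mix, under the limit in size, a difference of -1.96 (adjusted p = 0.00292).

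**Figure D5:**
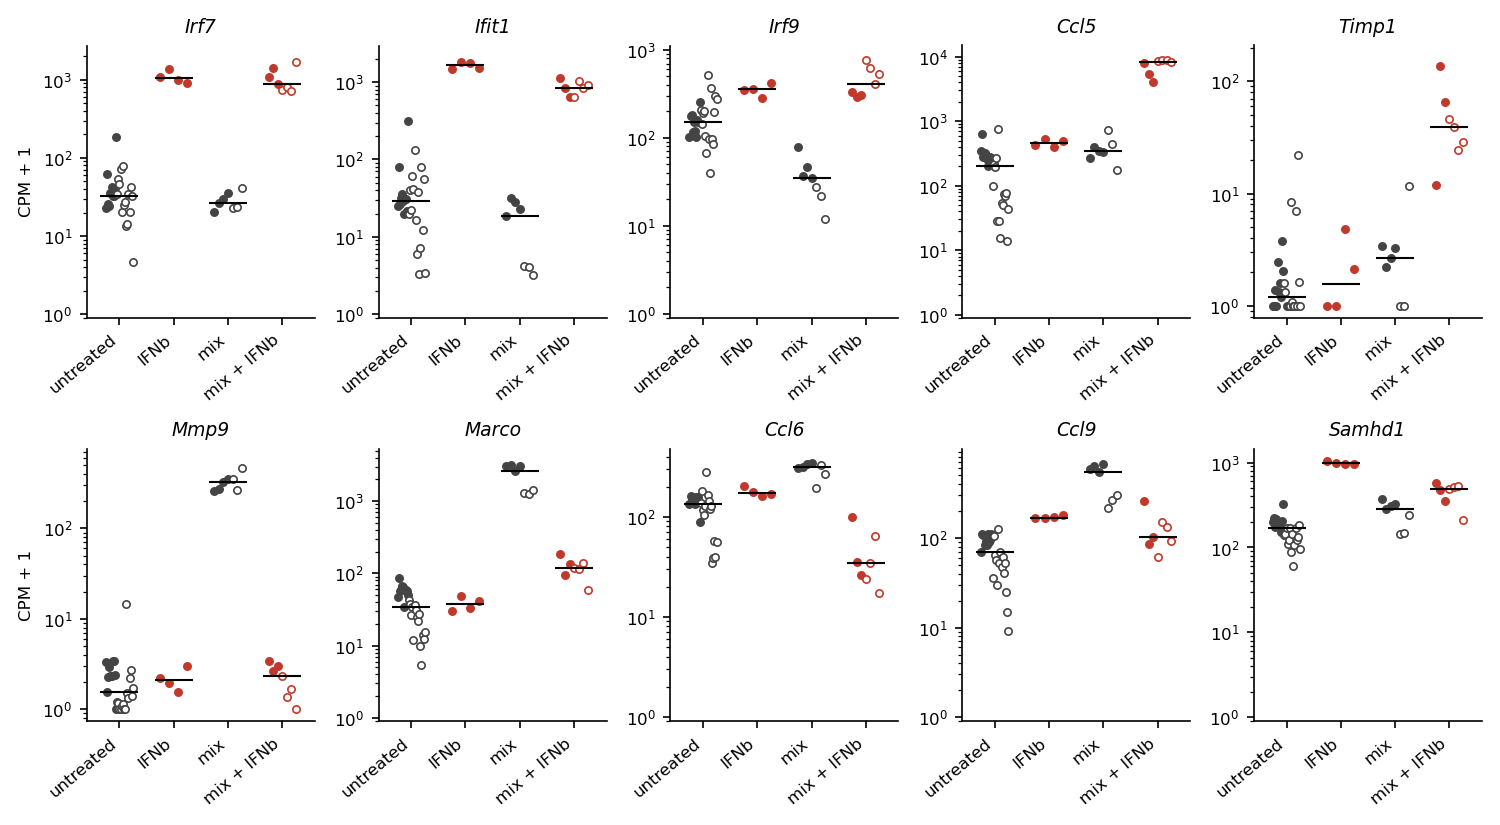
CPM of 10 genes in untreated cultures, IFNb alone, the mix and the mix with IFNb, on a log scale of CPM + 1, with the group median as a bar. Filled points are cultures of plate 1 and open points those of other plates.

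The study's modules hold most of the raised genes in 2 places, while the suppressed ones are spread. Over all 9399 tested genes, 1.31% were raised and 0.383% suppressed, and no test was run on the modules. The copy of its table used here holds 1504 genes in 31 modules built on cultures of the same cells, so the modules are not independent of the study. It lists fewer modules than the paper, so a gene counted outside them may be in a missing one. Of the raised genes 103 are in a module: 80 of the 142 tested genes of BR_turquoise rose, with a median log2 fold change of 2.67, and 17 of 42 of BR_blue, with a median of 1.61. Ifit3, the hub of BR_turquoise, is described above. Of the suppressed genes 21 are in a module, spread over 7 modules: 5 of 37 tested genes of CY_turquoise, 4 of 27 of CY_yellow, 3 of 46 of TQ_green, 3 of 49 of YE_brown, 3 of 106 of YE_turquoise, where 2 others rose, 2 of 32 of BL_blue and 1 of 25 of CY_red. Clec4e, the hub of CY_turquoise, is described above, and Irak3, an inhibitory kinase that is the hub of YE_turquoise, was at 76.4, 162 and 231 CPM in the mix and 98.1, 132 and 216 CPM with IFNb and was not called. Naaa, a lipid amidase that is the hub of PI_turquoise, was at 0, 12.7 and 16.2 CPM and 0, 2.46 and 9.20 CPM and was not called.

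The plates gave different numbers of calls. Tested on its own, plate 1 (4 against 3 cultures) gave 239 raised and 245 suppressed of 8476 genes, which include 105 of the 123 and 29 of the 36, and plate 2 (3 against 4) gave 63 and 7 of 7168, which include 55 and 5. The response to IFNb differed between the plates for 6 genes (0.0638% of those tested), each larger on plate 2: Ifit1, Phf11b, Lpxn, Zdhhc8, Kctd13 and Rgmb. In the last 3 some cultures of the mix on plate 2 were at or near 0, the lowest of Zdhhc8 being 0 CPM, and IFNb did not pass the test over both plates. For Ifit1 the plates differed by -2.68 (plate 1 minus plate 2, adjusted p = 0.0415), and the mix ranged from 2.25 to 30.4 CPM.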

How the data were processed

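The values are CPM of the 3′ ends of RNA, which the authors made with Salmon 0.7.1 and deposited for 784 cultures; 14 are compared here, 29 give the 2 other groups, and 741 were not used. Annotation was Ensembl 81, which is GRCm38, although the labels name mm8. Depth came from the value of 1 read (3.22 to 13.5 M reads in the 14 cultures, 1.45 to 14.4 M in all 43), and read counts were not recovered. Genes with more than 5 CPM in at least 4 cultures were fitted on log2(CPM + 1) with limma 3.58.1 (R 4.3.3, trended prior), the 2 groups alone or the 4 groups with an interaction term. Calls need a Benjamini-Hochberg adjusted p under 0.05 and a log2 fold change of at least 1 in size. Depth, genes above 5 CPM and the summed CPM of 10 marker lists were compared by exact permutation. The groups and the 28 gene lists were chosen with earlier results of these data known. Named genes are the 15 largest rises and 15 largest falls without overlap and with a mean of at least 10 CPM, list genes, 4 hub genes, and the 5 highest and 5 lowest interactions; others (Ctss, Lcn2, Cybb, Adgre1, the remaining genes with an interaction, and those that differ between plates) were chosen after their values were seen. Promoters are from RefSeq. Of 1 listed gene no row was found, and 25 row names that a spreadsheet turned into dates were kept as they are.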

Additional observations from a re-analysis of the deposited data

Results flagged for a closer look

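In some genes 1 culture lies far from the other cultures of its group. Of 265 groups of 4 to 7 cultures looked at, for the 87 genes with a printed change and for depth and genes above 5 CPM, 26 had such a culture, where chance gives about 1 in 20. Values are CPM and were compared on the log2 scale. In the mix, 1 culture was far below the others for Clec4e 37.9 (7234), Fxyd2 1.40 (7191), Igtp 0.894 (7235), Isg15 2.17 (7234), Ldha 268 (7191), Oas3 0.224 (7235), Tap1 0.224 (7235), Ube2l6 1.03 (7235). In the mix, 1 culture was far above the others for Slfn4 43.1 (7235), St6gal1 122 (7234). In the mix with IFNb, 1 culture was far below the others for Apoe 4266 (6305), Lgals9 645 (7238), Mx1 6.24 (7236), Oasl2 101.4 (7645), Vegfa 0.569 (7237). In the mix with IFNb, 1 culture was far above the others for Psme1 1035 (7236), Rsad2 792 (6305), Slfn4 359 (7645). With IFNb alone, 1 culture was far below the others for Gas7 1.87 (6227), Oas2 47.1 (6273), Vegfa 9.44 (6274). With IFNb alone, 1 culture was far above the others for Ctss 4857 (6228), Dhx58 287 (6274), Gm4955 152 (6228). For Cybb the value 1315 (6228) stands apart by this rule, but the other 3 cultures lie close to it and to each other, at 1227 to 1239 CPM. For Alox5 the value 0.102 (6274) also stands apart, but it is 1 read against 0 in the other 3 cultures. The number in parentheses is the culture. Culture 7235 of the mix has 5 of these values, the highest number for 1 culture.

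The response to IFNb differed between cells with and without the mix in the 4-group test (adjusted p under 0.05), with these differences of log2 fold changes, mix minus alone: AA467197 3.77, Ccl6 -3.66, Ccl9 -3.40, Cd164 3.56, Cybb -1.82, Edil3 -4.51, Egln3 -3.43, Fxyd2 -3.37, Gm14446 -4.66, Ifi44 -2.84, Irf9 2.57, Itgax 3.06, Ldha -1.96, Marco -4.49, Mmp9 -7.52, Pf4 -2.62, Samhd1 -1.90, Tgtp2 -4.41, Timp1 3.79, Ulk4 6.19, Vegfa -4.82. Between the plates the response differed for Ifit1 -2.68, Kctd13 -5.24, Lpxn -4.73, Phf11b -3.12, Rgmb -4.41, Zdhhc8 -5.56 (plate 1 minus plate 2, log2). Untreated medians of Mmp9, Egln3 and Fxyd2 are near 0, where IFNb alone could show no fall, and Itgax is near 0 in the mix. Why these values differ was not tested.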

How the results depend on the processing

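With 123 raised and 36 suppressed genes as reported, the counts for IFNb added to the mix were 187 and 89 with 4 groups in 1 fit, 239 and 245 on plate 1 alone, and 63 and 7 on plate 2 alone. Plate 1 holds 4 against 3 cultures with 8476 genes tested, and plate 2 holds 3 against 4 with 7168. Suppressed genes numbered 14 with no filter, 78 after quantile normalization and 59 with plate as a covariate; with pool as a covariate they numbered 43, of which 24 are among the 36. For IFNb alone, suppressed genes numbered 210 after quantile normalization, 266 with plate and 296 with pool as a covariate, and 851 on plate 1 alone (122 as reported). The difference of responses, mix minus alone, was positive for 56 genes with plate, 103 with pool, and 365 on plate 1 alone (18 as reported). It was negative for 40 with plate, 45 with pool, 79 with a pseudocount of 5, 72 with no filter and 200 on plate 1 alone (46 as reported). The cause was not tested. The single-plate fits, the test between plates and leaving out the untreated cultures were chosen after seeing the data.

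Leaving out 1 culture at a time, of the 14 for the mix, gave 110 to 126 raised and 19 to 51 suppressed genes in the mix. For the other results each of all 43 was left out, which gave 275 to 417 and 71 to 130 with IFNb alone. Positive differences of response then numbered 7 to 25 and negative ones 29 to 52. Suppressed genes in the mix fell to 23 without culture 6257, 23 without 6258, 22 without 6303 and 19 without 6304. With IFNb alone they were 73 without 6227, 79 without 6228, 71 without 6273 and 77 without 6274. Positive differences of response were 10, 9, 7 and 8 in the same order. Without 6274 negative differences of response were 29.

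Of the changes printed for single genes in the mix, 33 kept their direction and their side of the threshold in all alternatives run, 45 crossed the threshold in at least 1, and none changed direction. Of the printed differences of response, 13 stayed the same in all alternatives and 8 changed in at least 1. Over all printed gene results, 12 lost their call and 3 gained one with library pool as a covariate. With plate as a covariate 5 lost their call and 2 gained one. More were lost on plate 2 alone (32) and with no filter (16). By an exact rank-sum test 12 were lost, and on plate 1 alone 11 were lost and 3 gained. In 14 fits with 1 culture left out the call was lost in 13 for Clec4e, 11 for Ccl7, Gbp2 and Tcp11l2, 10 for St6gal1, 9 for Alox5ap and S100a8, 8 for Mmp8 and Ncapd2, 5 for Adgre1, 4 for Apoe, 3 for Egln3 and 1 for Ccl2, and gained in 2 for Cxcl2 and Ldha and 1 for Cxcl10. Among differences of response, in 43 such fits the call was lost in 28 for Pf4, 11 for Itgax, 10 for AA467197, 6 for Ifi44, 3 for Timp1 and 1 for Egln3 and Ulk4. With IFNb alone it was lost in 4 for Ccl9 and 2 for Ldha.

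Quantile normalization moved the median log2 fold change of all genes from 0.13 to -0.06 for IFNb alone, from -0.11 to 0.04 for the difference of responses, and from 0.01 to -0.02 in the mix. No paired analysis was possible because the labels number no cultures as pairs, and replicate numbers here only follow the order of the cultures. Depth limits genes near 0, where 1 read is up to 0.310 CPM in the 14 cultures and 0.689 CPM in all 43.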
